A study of Mus musculus with 23 samples.

Results

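The 52 genes described here encode the nuclear subunits of complexes II to V of oxidative phosphorylation, together with cytochrome c. They were taken by symbol from the GENCODE vM1 annotation as Sdha, Sdhb, Sdhc, Sdhd, Cyc1, Cycs and every symbol that starts with Uqcr, Cox4, Cox5, Cox6, Cox7, Cox8 or Atp5, which gave 52 of the 37310 genes counted. Complex II holds 4 of them, complex III 9, complex IV 19 and complex V 19, and Cycs encodes cytochrome c. The rule also collected 6 genes that are not subunits: Cox4nb (an endoplasmic reticulum membrane complex subunit named after its neighbour Cox4i1), Cox7a2l (a factor of supercomplex assembly), Atp5s, Atp5sl, Atp5l-ps1 and Atp5l2.

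RNA-seq was performed in mouse embryonic stem cells (ESCs) of the E14 line and its CRISPR-derived clones, in 3 biological replicates of 3 groups. The Zbtb11 KO cells were Zbtb11lox/lox with ERt2-Cre, which excises exon 3 of Zbtb11 once induced, inserted at Rosa26, and were treated with 250 nM 4-hydroxytamoxifen (4OHT) for 48 h. The EtOH control was the same line given the carrier ethanol, and the 4OHT control was Zbtb11WT/WT with WT Rosa26 and received 4OHT for the same time. The 4OHT control therefore differed from the KO cells in both loci and in clone, and it differed from the EtOH control in loci, clone and treatment together, which cannot be told apart. The KO and EtOH control are 1 clone under 2 treatments. ChIP-seq for Zbtb11 was performed in 4 replicates with a Zbtb11 antibody in E14 WT cells and in 3 replicates with a FLAG antibody in Zbtb11FLAG/FLAG cells, beside 2 FLAG control libraries of WT cells.

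Complex II (succinate dehydrogenase) passes electrons from succinate to ubiquinone, complex III passes them on to cytochrome c, and complex IV (cytochrome c oxidase) hands them to oxygen. Complexes III and IV pump protons across the inner mitochondrial membrane, and complex V (ATP synthase) uses the returning protons to make ATP. Complex II is encoded wholly in the nucleus, whereas complexes III, IV and V also contain subunits of the mitochondrial genome. Many promoters of nuclear subunits are known targets of NRF-1 and of NRF-2/GABP, an ETS factor that binds CCGGAAG.

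Depth lay between 14301457 and 23876604 counts on genes per library, and the 52 genes took 0.661 to 0.738% of them. Replicate 1 of every group stood apart from replicates 2 and 3, with a common biological coefficient of variation of 17.4% with all 3 replicates and 6.8% without it, so the fits below used replicates 2 and 3, and values with all 3 replicates are given where they change a count. The study's methods also leave out a distant replicate, without giving its number. All 8 stem cell markers were above 1 CPM (counts per 1000000 counts on genes), with a summed level of 4081 to 5275 CPM, against 15.7 to 27.5 CPM for 6 fibroblast markers and 13.3 to 22.5 CPM for 7 differentiation markers; in each of these lists 3 genes exceeded 1 CPM. The level of Zbtb11 itself was not analysed here, so these counts carry no check of the deletion.

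Before the values, a few promoter sequences are shown, from mm9 and in the direction of the subunit gene, because they lie within the consensus ChIP-seq peaks that the results below turn on. Capitals mark CCGGAAG, the core of the NRF-2/GABP motif, or its reverse complement CTTCCGG, and were written by a search of both strands. The sequence for Atp5j (chr16:84835269-84835368, minus strand) is that of the strongest peak of the 52 genes, with the motif centred at -29 relative to the nearest annotated start. It also holds AAGATGGC, the core of the YY1 motif, in lower case. The sequence for Cox7a2 (chr9:79607661-79607780, minus strand) lies directly upstream of its start and is given because the next strongest peak holds no CCGGAAG on either strand. Uqcrh (chr4:115747677-115747796, minus strand), Uqcrq (chr11:53244311-53244340, minus strand), Cox6b2 (chr7:4705029-4705114, minus strand) and Atp5l (chr9:44728784-44728813, minus strand) are the subunit genes with a peak whose level differed in the 4OHT control, and Cox4i1 (chr8:123192179-123192208, plus strand) shares its peak with Cox4nb.

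Atp5j: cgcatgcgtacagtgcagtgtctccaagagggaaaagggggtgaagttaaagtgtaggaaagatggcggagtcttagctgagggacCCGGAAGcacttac

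Cox7a2: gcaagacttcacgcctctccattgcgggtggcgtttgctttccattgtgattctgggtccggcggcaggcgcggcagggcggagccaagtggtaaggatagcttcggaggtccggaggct

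Uqcrh: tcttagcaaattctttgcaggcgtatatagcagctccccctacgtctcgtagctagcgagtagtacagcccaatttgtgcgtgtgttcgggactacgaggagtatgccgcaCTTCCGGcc

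Uqcrq: cttccgctcctcCCGGAAGtgacgggcgaa

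Cox6b2: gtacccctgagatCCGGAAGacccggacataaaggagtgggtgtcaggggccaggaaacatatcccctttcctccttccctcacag

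Atp5l: ctgccgcgggtcCTTCCGGgggtgacattc

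Cox4i1: cgggccccgttCTTCCGGtcgcgagcaccc

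The levels of the subunit genes in the EtOH control set the scale of what follows. Levels are compared between genes as CPM per kb of transcript, with the mean and SD of 3 libraries. Atp5b (the catalytic beta subunit of complex V) was the most abundant at 799 ± 46.0, followed by Atp5a1 (the alpha subunit) at 384 ± 16.2 and Cox4i1 at 332 ± 17.9. Cox8a (299 ± 26.6) came next and its range overlapped that of Cox4i1. The median over the tested genes was 75.6 in complex II, 137 in complex III, 152 in complex IV and 129 in complex V. Complex II also had the narrowest range, from Sdhd at 68.0 ± 1.14 to Sdhc at 113 ± 5.73, and Sdha (69.0 ± 1.99) overlapped Sdhd. Within complex III the levels ran from Uqcrfs1 (the Rieske iron-sulfur protein) at 61.3 ± 3.87 to Uqcr10 at 245 ± 24.1, and Uqcr10 and Uqcrq (243 ± 34.8) did not differ beyond their spread. The 3 genes for the same mature c subunit of complex V had unequal levels, with Atp5g1 at 241 ± 55.1, Atp5g3 at 191 ± 22.1 and Atp5g2 at 82.7 ± 3.87, and Atp5g1 overlapped Atp5g3. Near-identical copies elsewhere in the genome cover 100% of the Atp5g2 transcript and 0% of that of Atp5g3. The lower level of Atp5g2 is therefore uncertain. Cycs reached 10.1 ± 1.05, over a long transcript with repeats. These levels are of RNA and do not give the amounts of protein.

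**Figure D1:**
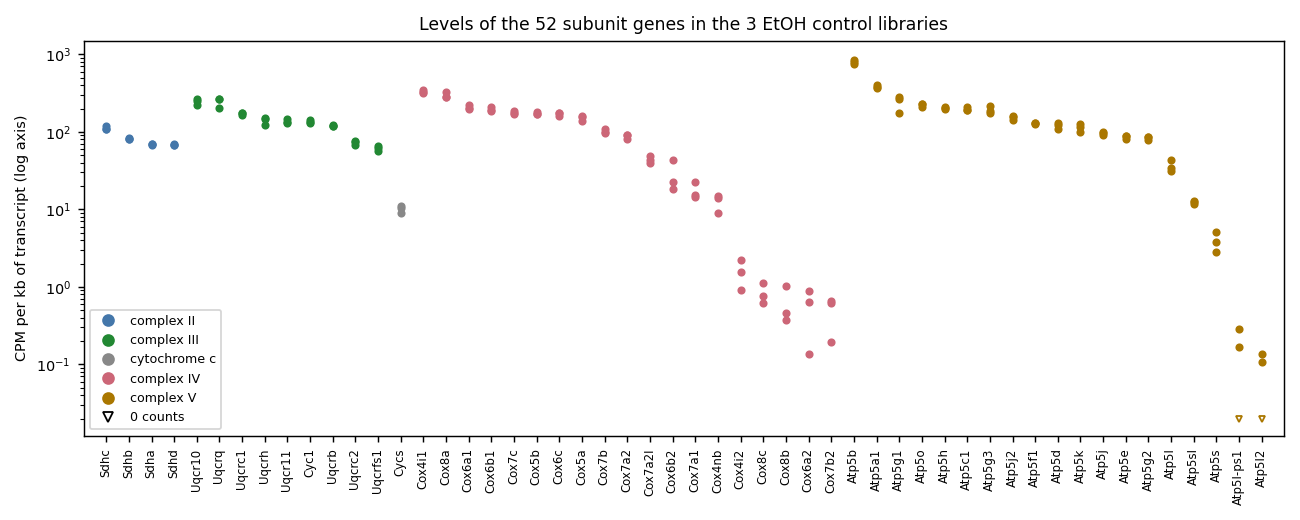
CPM per kb of transcript (log axis) of the 52 genes in each of the 3 EtOH control libraries, ordered by complex and by mean level, with open triangles for libraries with 0 counts. Atp5b lies highest, at a mean of 799, and the isoforms of other tissues and the pseudogenes lie at the bottom of complexes IV and V.

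Complex IV is the complex with the most subunit isoforms of other tissues, and in ESCs these were below their common partners, least so for Cox6b2. Cox6a2, Cox8b, Cox7b2 and Cox8c, the muscle and testis forms, stayed at or below 1.26 CPM in all 9 libraries and were not tested. Cox6a2 lay between 0.0895 and 1.26 CPM against 109 to 135 CPM for Cox6a1, and Cox8b between 0 and 0.371 CPM against 139 to 197 CPM for Cox8a. Cox8c lay between 0.293 and 0.781 CPM, and Cox7b2 between 0.106 and 0.669 CPM against 88.1 to 108 CPM for Cox7b. Cox4i2, the form of lung and of low oxygen, was counted at 1.64, 0.67 and 1.12 CPM in the EtOH control, 2.58, 0.882 and 1.19 in Zbtb11 KO and 2.52, 0.625 and 0.952 in the 4OHT control, against 215 to 293 CPM for Cox4i1. Cox7a1, the muscle form of Cox7a2, was at 8.27, 5.65 and 5.19 CPM in the EtOH control, 9.67, 5.63 and 5.06 in Zbtb11 KO and 9.09, 7.50 and 5.84 in the 4OHT control. For both genes replicate 1 was the highest library of each group, and the groups overlapped. Cox6b2, the testis form of Cox6b1, was the only one of the 7 tissue forms above 10 CPM in every library. It lay between 10.1 and 35.5 CPM, against 91.4 to 105 CPM for Cox6b1. The pseudogene copies Atp5l-ps1 and Atp5l2 stayed at 0 to 2 counts per library and were not tested, so 46 of the 52 genes, those with more than 1 CPM in at least 2 of the 6 libraries fitted, were tested. All 4 genes of complex II and all 9 of complex III passed this filter, as did 15 of complex IV, 17 of complex V and Cycs.

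The comparison of Zbtb11 KO with the EtOH control asked which genes change when Zbtb11 is removed. None of the 46 genes passed the threshold, an adjusted p (edgeR quasi-likelihood F test) under 0.05, whereas 191 of the 14172 genes tested were lower (1.35%) and 21 were higher (0.148%). Over both directions 1.5% of all genes passed, so a count of 0 among 46 genes is near the background. At an unadjusted p under 0.05 there were 3 genes, Cox7b, Atp5g1 and Atp5g2, and the lowest adjusted p was 0.678. DESeq2 also called 0 of the genes, as did each of the other 8 alternatives. The fits without replicate 2 or replicate 3 called only 13 and 21 of all genes tested, so their 0 says little about these genes. The size of the change was bounded for most of the genes. The 95% intervals of 44 of the 46 genes lay above -0.5 on the log2 scale, those of 44 lay below 0.5, and those of 43 did both. The exceptions were 3 of the less abundant genes, Cox4i2 (-0.63 to 0.98), Atp5s (-0.77 to 0.13) and Cox6b2 (-0.24 to 0.54). With all 3 replicates and no block these counts were 40, 42 and 40, and the log2 changes ran from -0.30 to 0.40. With all 3 replicates and the replicate block they were 45, 45 and 44.

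Over each complex the log2 fold changes were centred close to 0. The median was -0.03 in complex II (range -0.14 to -0.01), -0.01 in complex III (-0.11 to 0.11), -0.04 in complex IV (-0.17 to 0.17) and -0.04 in complex V (-0.32 to 0.13), beside 0.00 over all genes tested. Cycs changed by 0.07. The summed level of complex V was 4010, 3981 and 3857 CPM in the EtOH control and 4128, 3887 and 4013 CPM in Zbtb11 KO, and the groups overlapped. For complex III the sums were 999, 1070 and 1011 CPM against 1054, 1063 and 1065 CPM. Complex IV summed to 1331, 1280 and 1247 CPM against 1363, 1282 and 1283 CPM, and complex II to 485, 474 and 461 CPM against 508, 461 and 474 CPM. In all of them the range of the EtOH control libraries was wider than the distance between the group means. No test of the difference between complexes was made, because subunits are not replicates.

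The largest differences in each complex were small. In complex III it was that of Uqcrq, at -0.11 ± 0.06 (log2, SE), and in complex IV that of the scarce Cox4i2, at 0.17 ± 0.37. Sdhd, a membrane anchor of complex II, was at 86.5, 89.2 and 86.9 CPM in the EtOH control, at 94.0, 80.8 and 84.5 in Zbtb11 KO and at 93.3, 79.3 and 86.4 in the 4OHT control. The 3 groups overlapped, and the fold change from the EtOH control to KO was -0.14 ± 0.07 (log2, SE). Cox7b, a small structural subunit and the next in complex IV, was at 96.9, 99.6 and 108 CPM in the EtOH control, 88.1, 98.0 and 93.0 in KO and 90.9, 98.8 and 101 in the 4OHT control. It was lower in KO within each replicate number, by -0.17 ± 0.07 (log2), with an adjusted p of 0.713 in edgeR, and of 0.188 when all 3 replicates were fitted with the replicate number as a block. Atp5s, described as coupling factor B of complex V, was at 7.63, 5.70 and 4.16 CPM in the EtOH control, at 6.37, 4.36 and 3.82 in KO and at 6.29, 4.95 and 4.03 in the 4OHT control, a difference of -0.32 ± 0.21 (log2) in KO against the EtOH control. Replicate 1 was its highest library in each group. Atp5g2 was at 54.9, 50.6 and 55.0 CPM in the EtOH control, at 52.5, 47.5 and 48.9 in KO and at 62.9, 54.3 and 52.2 in the 4OHT control, and Cycs, the electron carrier between complexes III and IV, at 28.1, 34.6 and 32.3, at 31.1, 36.9 and 35.7, and at 27.7, 32.9 and 36.0 CPM in the same order. Neither gene passed the threshold in a comparison of replicates 2 and 3. With all 3 replicates and the replicate block Atp5g2 was lower in KO than in the 4OHT control, by -0.21 ± 0.06 (log2; edgeR adjusted p = 0.0112).

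**Figure D2:**
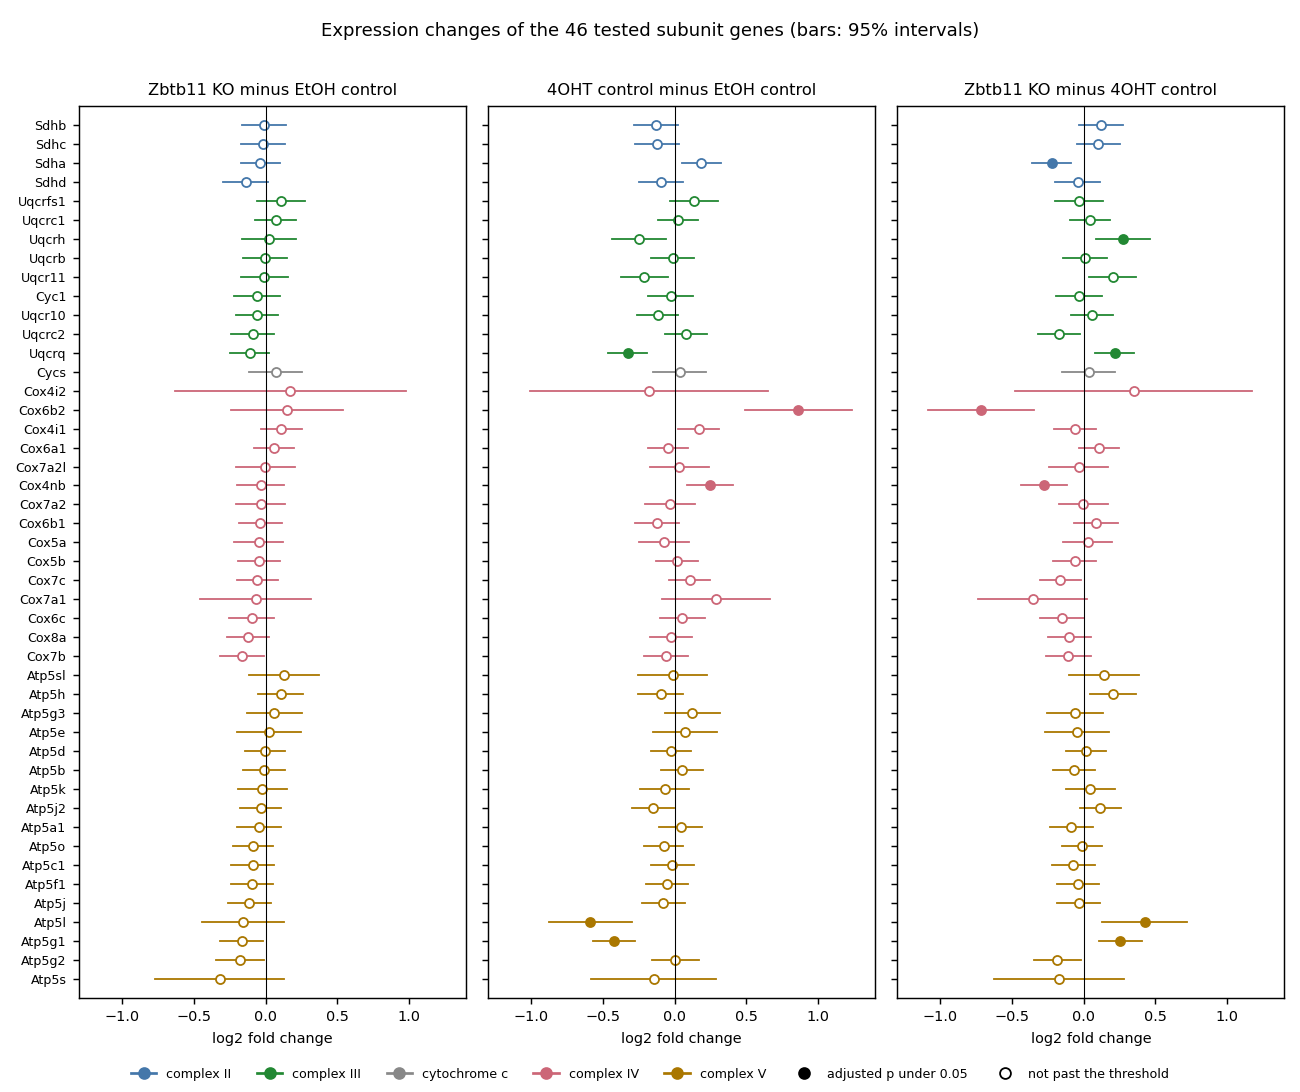
Log2 fold change with its 95% interval for the 46 tested genes in the 3 comparisons, coloured by complex and ordered by the first comparison, with filled points for an adjusted p under 0.05. No point is filled in the first panel, 5 are filled in the second and 7 in the third.

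Genes that work with these complexes did change in the same fit. Of the 38 tested complex I subunits, 3 were lower in Zbtb11 KO, Ndufc2 by -2.30, Ndufs7 by -1.07 and Ndufa12 by -1.05 (log2, edgeR), and 0 were higher. Among the assembly factors, 1 of the 11 tested for complex IV was lower, Taco1 (a translational activator of mt-Co1). It was at 15.3, 20.7 and 17.5 CPM in the EtOH control and at 3.73, 6.07 and 4.66 in KO, a difference of -1.88 ± 0.15 (log2; edgeR adjusted p = 1.72e-05). For complex V, 2 of 3 were lower. Atpaf1, a chaperone of the beta subunit, changed by -1.11 ± 0.10 (log2; edgeR adjusted p = 4.70e-05), and Tmem70, a membrane factor of complex V assembly, by -0.47 ± 0.10 (edgeR adjusted p = 0.0446). The call of Tmem70 was lost in 7 of 9 alternatives, with an adjusted p of 0.117 in DESeq2, and those of Atpaf1 and Taco1 in 2 of 9, which left out replicate 2 or 3. In the 4OHT control against the EtOH control, Ndufc2, Atpaf1 and Tmem70 were higher, by 0.37, 0.45 and 0.42 (log2; edgeR adjusted p = 0.0143, 0.0073 and 0.0122). Ndufs7, Ndufa12 and Taco1 did not pass there. Other genes of these lists did pass there (log2, edgeR). Ndufb7 was higher by 0.34, and Ndufa9, Ndufb10, Uqcc, Sco1 and Atpaf2 were lower, by -0.51, -0.55, -0.34, -0.44 and -0.29. Tmem70 differed by -0.88 ± 0.10 in KO against the 4OHT control (edgeR adjusted p = 8.93e-05), which spans loci and clone as well. In KO against the EtOH control, none of the 2 tested factors of complex II and the 4 of complex III passed, with medians of 0.01 and -0.15. Of the 6 subunits of complexes III, IV and V encoded in mitochondria, only mt-Co1 and mt-Cytb could be tested, since the other 4 were at 0 to 3 counts in a library, and neither passed. As mt-Co1 had 67920 to 143827 counts, the counting of mitochondrial transcripts is uncertain for all 6. Against the 4OHT control mt-Co1 was lower in KO, by -0.47 ± 0.15 (log2; edgeR adjusted p = 0.048), a call kept in 2 of 9 alternatives. Its lowest library was KO replicate 3, at 3564 CPM. Atpaf2, the chaperone of the alpha subunit, did not pass in KO against the EtOH control.

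Against the EtOH control, the 4OHT control differed in 5 of the 46 genes, 3 lower and 2 higher, beside 8.22% of all genes tested lower and 8.86% higher. This comparison was made to see the effect of 4OHT in cells without Cre, but here it spans genotype and clone as well. With all 3 replicates and no block none of the 46 passed, beside 288 lower and 295 higher of 14346 genes tested. Leaving out replicate 2 gave 0, beside 4 genes lower and 9 higher over all, and leaving out replicate 3 gave 0, beside 9 and 15. A block for the replicate number gave 9 genes in replicates 2 and 3, beside 1915 lower and 1999 higher of 14172. With all 3 replicates the block gave 11, beside 2374 lower and 2442 higher of 14346. The count thus depended on how replicates were treated, as did that over all genes tested. In replicates 2 and 3 without the block, the share of the 46 genes called was not above the background. The KO against the 4OHT control gave 7 genes, 3 lower and 4 higher, beside 10.3% of all genes tested lower and 8.38% higher. All 3 replicates gave 1 gene (Sdha), beside 534 lower and 391 higher of all genes tested. Leaving out replicate 2 gave 0, beside 68 lower and 14 higher, and leaving out replicate 3 gave 0, beside 86 and 28. The blocked fits gave 10, beside 2232 lower and 1942 higher, and 13, beside 2592 lower and 2418 higher. The 13 added Uqcr11, Uqcrc2, Cox8a, Atp5g2, Atp5h and Atp5j2 to the 7. With library sizes in place of TMM, 1222 of all genes were lower and 1550 higher in that comparison, against 1457 and 1188, and 8 of the 46 genes passed. The comparisons share control libraries, so they are not independent, and their values are given side by side. In bulk RNA, a change in the share of cells of a type and a change in RNA per cell cannot be told apart.

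Sdha, the flavoprotein of complex II, was at 205, 202 and 194 CPM in the EtOH control, 204, 200.0 and 198 in Zbtb11 KO and 253, 223 and 229 in the 4OHT control. All 3 libraries of the 4OHT control lay above the other 6. The difference was 0.19 ± 0.06 (log2; edgeR adjusted p = 0.0612) for the 4OHT control against the EtOH control, and -0.22 ± 0.06 (adjusted p = 0.0272) for KO against the 4OHT control. With the replicate block the first passed as well, with an adjusted p of 0.0209 in replicates 2 and 3. The other 3 genes of complex II passed in neither comparison.

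Among the genes of complex III, Uqcrq, a small subunit near the ubiquinone site, was at 102, 133 and 133 CPM in the EtOH control, 121, 128 and 126 in KO and 84.0, 106 and 108 in the 4OHT control. Within each replicate number the 4OHT control was the lowest group. Uqcrq differed by -0.32 ± 0.06 (log2; edgeR adjusted p = 0.00485) in the 4OHT control against the EtOH control, and by 0.22 ± 0.06 (adjusted p = 0.0324) in KO against the 4OHT control. Uqcrh, the hinge protein that contacts cytochrome c1, was at 58.1, 72.1 and 68.9 CPM in the EtOH control, 67.7, 67.8 and 80.5 in KO and 47.1, 58.6 and 60.7 in the 4OHT control. Its KO libraries all lay above those of the 4OHT control, and the EtOH control overlapped both. Uqcrh differed by -0.25 ± 0.09 (log2; edgeR adjusted p = 0.0717) and by 0.27 ± 0.09 (adjusted p = 0.0466) in the same order. Because 93.2% of its transcript has a near-identical copy elsewhere in the genome, its counts are uncertain.

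In complex IV the genes that passed were Cox6b2 and Cox4nb. Cox6b2 was at 24.2, 12.6 and 10.1 CPM in the EtOH control, at 24.6, 14.3 and 11.7 in KO and at 35.5, 24.4 and 17.2 in the 4OHT control. It was highest in the 4OHT control within each replicate number, although replicate 1 was high in every group and the groups overlapped. The difference was 0.86 ± 0.17 (log2; edgeR adjusted p = 0.0057) in the 4OHT control against the EtOH control and -0.71 ± 0.17 (adjusted p = 0.0129) in KO against the 4OHT control. Its partner Cox6b1 stayed between 91.4 and 105 CPM in all 9 libraries and passed in neither comparison. Cox4nb was at 43.7, 73.1 and 69.3 CPM in the EtOH control, at 43.4, 69.6 and 74.2 in KO and at 53.0, 81.7 and 87.9 in the 4OHT control, with replicate 1 low in all groups. It differed by 0.24 ± 0.07 (log2; edgeR adjusted p = 0.0408) and -0.28 ± 0.07 (adjusted p = 0.0219). Cox4i1, which shares its promoter peak, differed by 0.17 ± 0.07 in the 4OHT control against the EtOH control (edgeR adjusted p = 0.101, and 0.0414 with the replicate block in replicates 2 and 3).

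In complex V Atp5g1 and Atp5l passed in both comparisons with the 4OHT control. Atp5g1, a gene for the c subunit of the membrane ring, was at 123, 184 and 193 CPM in the EtOH control, 118, 168 and 179 in KO and 104, 139 and 144 in the 4OHT control. It was lowest in the 4OHT control within each replicate number, and replicate 1 was low in every group. The differences were -0.42 ± 0.07 (log2; edgeR adjusted p = 0.00178) and 0.26 ± 0.07 (adjusted p = 0.0222). The other genes for this subunit, Atp5g2 and Atp5g3, did not pass in either comparison of replicates 2 and 3, with changes of 0.00 and 0.12 in the 4OHT control against the EtOH control. Atp5l, subunit g of the membrane part, was at 15.9, 17.6 and 21.8 CPM in the EtOH control, 17.2, 16.7 and 19.8 in KO and 11.9, 12.8 and 13.5 in the 4OHT control. The 4OHT control lay below the other 6 libraries, with differences of -0.59 ± 0.13 (log2; edgeR adjusted p = 0.0118) and 0.43 ± 0.14 (adjusted p = 0.0473). For Atp5g1 the search for near-identical copies used a transcript of 4715 bases, of which 38.6% was covered by 568 matches elsewhere. Its level uses a length of 691 bases, so that share does not describe the shorter transcripts, and its counts remain uncertain. Near-identical copies elsewhere cover 96.3% of the Atp5l transcript and 100% of that of Atp5g2, so their counts are uncertain. The part of shared reads in the differences of these genes was not tested. Counting was not otherwise checked for the 14 of 51 genes searched in which such copies cover over 50% of the transcript.

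**Figure D3:**
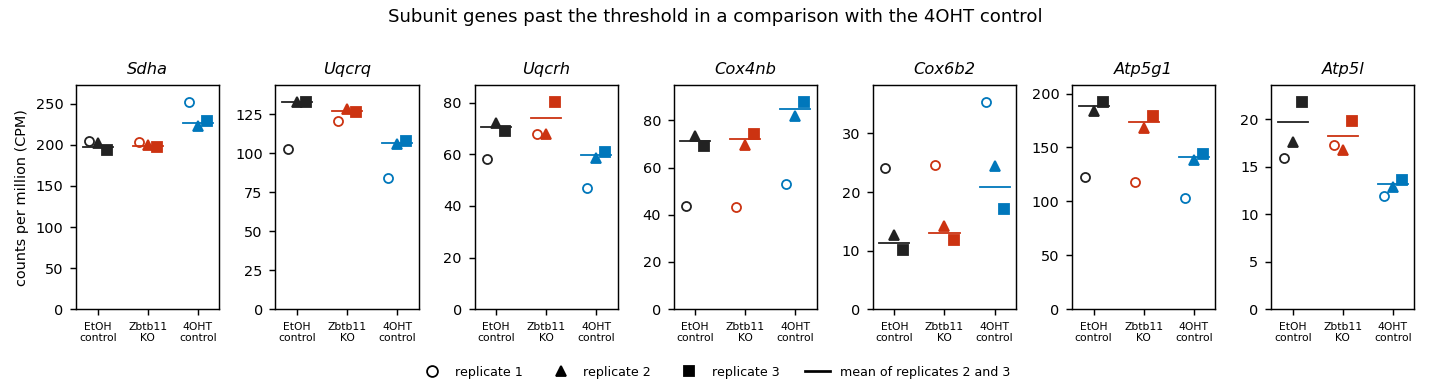
CPM in each of the 9 libraries for the 7 genes past the threshold in a comparison with the 4OHT control, with open circles for replicate 1, filled symbols for replicates 2 and 3 and a line at the mean of replicates 2 and 3. For Sdha and Atp5l all 3 libraries of the 4OHT control lie outside the range of the other 6.

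Replicate 1 lay apart from the other replicates in both directions among the subunit genes, at shares near those of all genes tested. Of the 46 tested genes, 10 were lower in replicate 1 than in replicates 2 and 3 in all 3 groups, beside 25.1% of all genes tested, and 16 were higher, beside 34.1%. The lower ones were 4 genes of complex V, 3 of complex III, 2 of complex IV and Cycs. The higher ones were 8 genes of complex IV, 4 of complex V, 3 of complex II and Uqcrc2 of complex III.

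Zbtb11 ChIP-seq signal was then examined at the promoters of the 52 genes, taken from 2 kb upstream to 500 bases downstream of any annotated transcription start. The authors' table gives read coverage, normalised between 7 libraries, of 7500 consensus peaks found with both the Zbtb11 and the FLAG antibody. A consensus peak lay at 23 of the 52 promoters, in 22 distinct peaks, because Cox4i1 and Cox4nb share one. Among the 46 tested genes this was 22, or 47.8%, beside 31.3% of all genes tested. None of the 274 peaks of the FLAG control lay at a promoter of these genes. The peaks were spread unevenly over the complexes. Complex IV had a peak at 11 of 15 tested genes, complex II at 2 of 4, complex V at 6 of 17 and complex III at 3 of 9, and Cycs had none. These shares were not tested against each other.

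Strong peaks among them were counted next. The authors' class of Zbtb11-high peaks holds the outliers of the distribution, those more than 1.5 interquartile ranges beyond its upper quartile, which here is a mean coverage above 309 in the Zbtb11 antibody libraries and takes in 857 of 7500 peaks. Only Atp5j had such a peak, which is 2.17% of the tested genes beside 6.14% of all genes tested. This share rests on 1 gene and was not tested against that of all genes. Of the 38 tested complex I subunits, 7 had such a peak (18.4%). The median coverage of the peaks was 116 in complex II, 109 in complex III, 65.8 in complex IV and 135 in complex V. It was 343 in complex I and 102.5 over all tested genes with a promoter peak. The value for complex V includes the peak of the untested Atp5l2 (mean 194). That for complex IV counts the peak shared by Cox4i1 and Cox4nb once for each gene. Complex IV thus had a peak at the largest share of its genes of the 4 complexes and the lowest median coverage.

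Atp5j, the coupling factor 6 of the ATP synthase stalk, had the strongest peak (chr16:84834623-84835823, mm9), with coverage of 544, 644, 546 and 621 in the Zbtb11 antibody libraries and 621, 692 and 443 in the FLAG-Zbtb11 libraries. Every value lay above 309, and its mean of 589 ± 51.6 (SD, n = 4) ranked 362 among the 7500 peaks. The peak lies over the start it shares head to head with Gabpa, which encodes the DNA-binding subunit of NRF-2/GABP. Neither gene changed past the threshold in Zbtb11 KO. Atp5j was at 65.0, 68.5 and 70.1 CPM in the EtOH control, 68.3, 68.1 and 64.2 in KO and 57.2, 67.1 and 64.9 in the 4OHT control, with a difference of -0.11 ± 0.07 (log2; edgeR adjusted p = 0.916) in KO against the EtOH control. Gabpa differed by -0.05 ± 0.06 (edgeR adjusted p = 0.963).

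The next peak belongs to Cox7a2, the common form of complex IV subunit 7a, with coverage of 265, 335, 288 and 273 in the antibody libraries and 336, 405 and 285 in the FLAG-Zbtb11 libraries. Its mean of 290.1 ± 31.4 (n = 4) lay just under the limit of 309, and its FLAG mean of 342 ± 60.4 (n = 3) above the limit of 260.5 computed in the same way from the FLAG-Zbtb11 libraries. Cox7a2 was at 69.5, 68.7 and 61.7 CPM in the EtOH control, at 80.0, 68.4 and 63.2 in KO and at 55.7, 62.1 and 66.1 in the 4OHT control, where the KO overlapped the EtOH control. Atp5o, the oligomycin sensitivity subunit, had coverage of 134, 353, 212 and 268 with the Zbtb11 antibody but only 20.6, 11.7 and 36.7 with the FLAG antibody. All 4 antibody values exceed all 3 FLAG values, so the rank of this peak was 1127 by the first antibody and 7078 by the second. For Atp5l2 the peak (208, 178, 193 and 197 against 340.4, 225 and 232) lies at the start of the neighbouring Cwc25. Uqcrh had 132, 168, 160 and 135 against 161, 189 and 216, in a peak shared with Lrrc41. The weakest peak was that of Cox6b1 at a mean of 19.1 ± 6.42 (rank 7172).

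**Figure D4:**
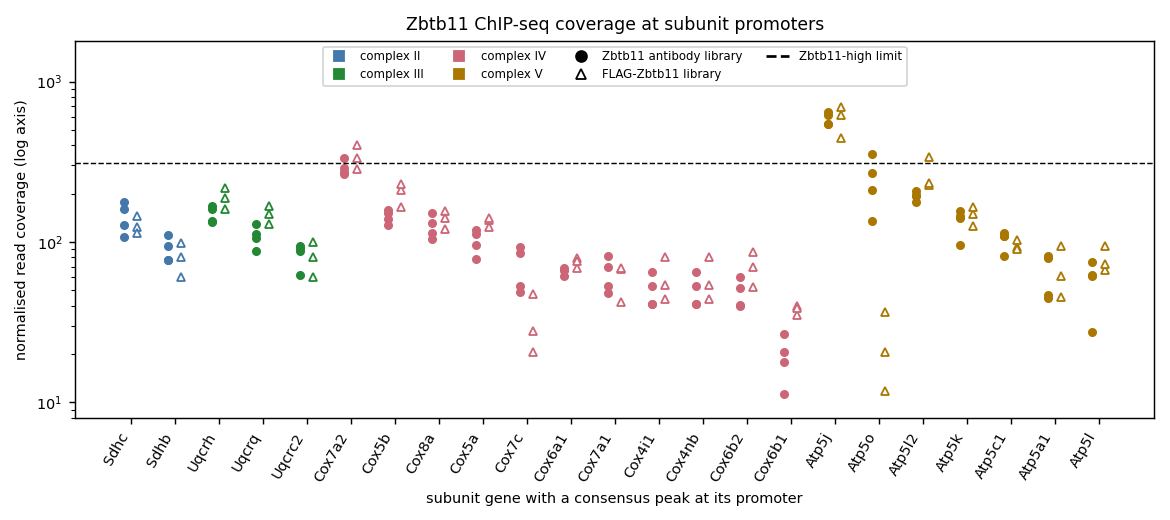
Normalised read coverage (log axis) of the consensus peak at each of the 23 promoters with one, with filled circles for the 4 Zbtb11 antibody libraries, open triangles for the 3 FLAG-Zbtb11 libraries and a dashed line at the Zbtb11-high limit. Atp5j alone lies wholly above the line, Cox7a2 lies around it, and the 2 antibodies disagree most at Atp5o.

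Over all genes tested, lower expression in Zbtb11 KO went with the Zbtb11-high class, at 175 of 870 genes (20.1%). The counts were 6 of 3570 genes with another consensus peak (0.168%) and 10 of 9732 with none (0.103%). Of the 21 genes that were higher in KO, 18 also lay in the Zbtb11-high class, 0 had another consensus peak and 3 had none. The subunit genes of complexes II to V lie almost wholly in the latter classes, with 1 gene in the first, 21 in the second and 24 in the third, and none of them was lower. Their median log2 change was -0.04 for the 21 with a weaker peak and -0.01 for the 24 without one. Complex I differed in make-up, with 7 genes in the Zbtb11-high class, of which Ndufc2 and Ndufa12 were lower, while Ndufs7, the other lower gene, was 1 of the 25 complex I genes with no consensus peak. Atp5j and Ndufa12 had similar mean coverage, 589 and 584, with changes of -0.11 and -1.05. Taco1, Atpaf1 and Tmem70 had mean coverage of 708, 567 and 408, all in the Zbtb11-high class, as was Cox16 at 544, another assembly factor of complex IV, which changed by -0.10 and did not pass.

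**Figure D5:**
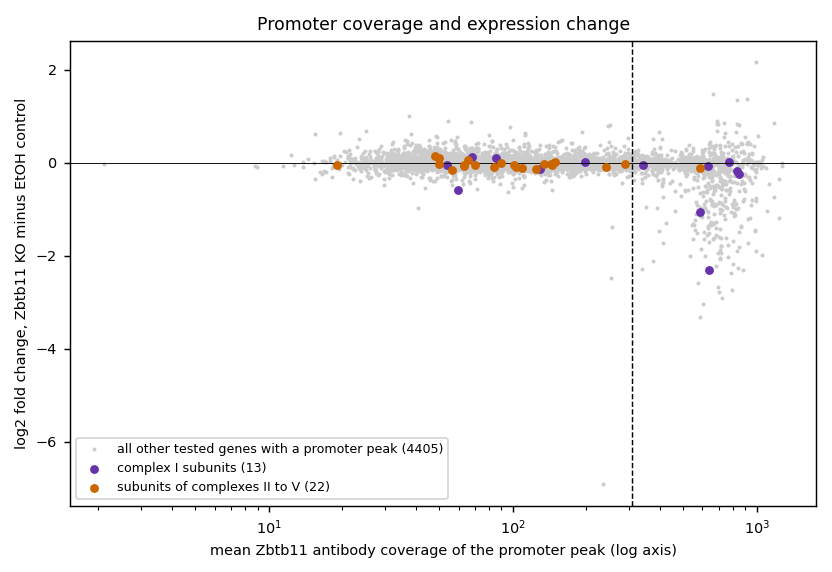
Mean Zbtb11 antibody coverage of the promoter peak (log axis) against the log2 fold change in Zbtb11 KO against the EtOH control, for the 22 tested subunit genes of complexes II to V, the 13 complex I subunits and all other tested genes with a peak. The dashed line is the Zbtb11-high limit, with 1 of the 22 and 7 of the 13 to its right.

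The promoter sequences were searched for the motifs of 3 factors known at such genes. In the 300 bases from 250 upstream to 50 downstream of the start, CCGGAAG occurred on either strand in 12 of the 46 tested genes, beside 15.8% of all genes tested. The NRF-1 motif, searched on both strands as 10 bases with 1 of them free, occurred in 8, beside 9.05%, and AAGATGGC in 4, beside 4.28%. A gene was counted once however many matches it held, and matches could overlap. Of the 22 distinct promoter peaks, 14 held CCGGAAG, beside 39.1% of all 7500 peaks and 57.6% of the Zbtb11-high peaks. The peaks at Cox7a2, Atp5o, Sdhc, Atp5c1, Cox5a, Uqcrc2, Cox7c and Cox7a1 held none. A match describes these letters only.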

How the data were processed

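The counts per gene were deposited by the authors, who made directional libraries, trimmed the paired reads (TrimGalore, PRINSEQ), mapped them to mouse transcripts by STAR and took gene totals from HTSeq with no scaling (whether strand was used is not given in the sources used here). Rows without a feature (25.3 to 31.6% of reads) and ambiguous reads (0.79 to 0.905%) were left out of library sizes. The ChIP-seq coverage (signal) values were deposited by the authors, who aligned reads to mm9 with Bowtie 1.1.2, called peaks with MACS2 over replicates and normalised consensus peaks with DiffBind. Depth of the ChIP-seq libraries was not analysed here.

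The 3 comparisons came from edgeR 4.0.16 in R 4.3.3 (TMM scaling, the legacy quasi-likelihood F test, two-sided, Benjamini-Hochberg adjustment over 14172 genes, threshold 0.05) in 1 fit of the 3 groups over replicates 2 and 3, after genes that did not exceed 1 CPM in 2 or more libraries had been removed. DESeq2 1.42.0 was an alternative, beside all 3 replicates, the replicate number as a block, each replicate left out, library sizes and other filters. Libraries of the same number correlated at 0.416 to 0.812 after subtraction of group means, and those of different numbers at 0.517 at most. The values of 0.784 to 0.812 came from replicate 1. Among replicates 2 and 3, same numbers gave 0.416 to 0.672 and different numbers 0.287 to 0.517, which overlap. The group means included replicate 1, whose distance gives replicates 2 and 3 of a group a shared deviation. These correlations therefore cannot decide whether replicates 2 and 3 were paired. The fit had no block, and counts with the block are given beside it. In these replicates the common biological coefficient of variation was 6.8% without the block and 4.81% with it. The method was tested on simulated counts for replicates 2 and 3 in KO against the EtOH control. It called 54 of 100 genes given a log2 change of 0.5 and 92 of 100 given a change of 1. Values of all replicates are CPM of counts on genes, and levels per kb use the median length of protein-coding transcripts.

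Sequences were read from NCBIM37 (mm9) with pysam 0.24.0. A copy was a blastn 2.17.0 match elsewhere in the genome over 100 or more bases at 95% identity or more. Tables were handled with Python 3.11.15, numpy 2.4.6 and pandas 2.3.3, and figures drawn with matplotlib 3.10.9.

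The genes given with all values are those past the threshold in a comparison, the largest change in each complex, the tissue isoforms, and the 5 strongest promoter peaks, with Cox7b, Atp5g2, Cycs, Gabpa, Ndufs7 and Cox16 named after their values were seen. The genes and lists were chosen with earlier results of these data known, so they are not independent of them. The p-values measure the spread between the libraries fitted.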

Additional observations from a re-analysis of the deposited data

Results flagged for a closer look

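At the promoter of Atp5c1, the gamma subunit of complex V, Zbtb11 antibody replicate 4 had a coverage of 81.6, against 109, 109 and 113 in the other replicates, which set it far from them (Dixon's test for 4 libraries). This was 1 of the 22 promoter peaks examined, and chance alone flags about 1 in 20 groups. The FLAG-Zbtb11 libraries gave 93.4, 90.7 and 104 at the same peak.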

How the results depend on the processing

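The count of subunit genes past the threshold in Zbtb11 KO against the EtOH control was 0 in all 9 alternatives. Among these, the fits without replicate 2 or replicate 3 called only 13 and 21 of all genes tested, so a 0 there says little. In the 4OHT control against the EtOH control the count of 5 became 0 with all 3 replicates, 9 with the replicate block in replicates 2 and 3 and 11 with the block in all 3 replicates, and ranged from 0 to 0 over the fits without replicate 2 or replicate 3. In Zbtb11 KO against the 4OHT control the count of 7 became 1 with all 3 replicates, 13 with the block in all 3 replicates, 4 in DESeq2 and 3 with no filter on low counts, and ranged from 0 to 0 without replicate 2 or replicate 3. These counts fell where replicate 1 entered without a block, and the common biological coefficient of variation was then 17.4 to 22.3%. The counts over all genes tested also fell in those fits and rose with the block. No gene called in a comparison with the 4OHT control changed direction in an alternative, and both blocked fits kept all of these calls.

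The median change per complex in KO against the EtOH control moved by more than its spread between replicates for cytochrome c and complex IV. Cytochrome c went from 0.07 to 0.12 with library sizes in place of TMM and ranged from 0.080 to 0.11 without replicate 2 or replicate 3. Complex IV went from -0.037 to -0.0023 with all 3 replicates, to -0.0010 with the block in all 3 replicates and to 0.0104 with library sizes, and ranged from -0.0345 to 0.0431 without replicate 2 or replicate 3. Library sizes moved the median of all genes by 0.05 in this comparison. The count of Zbtb11-high promoters went from 1 to 3 when the FLAG-Zbtb11 libraries set the class, which added Cox7a2 and Atp5l2. Of the 46 tested genes these were 2, beside 6.33% of all genes tested. The count of promoters with a consensus peak was 23 at every promoter width, 26 with all Zbtb11 peaks and 24 with all FLAG-Zbtb11 peaks. Among the 46 tested genes the count was 22 at every width, beside 28.3 to 31.3% of all genes tested. With all Zbtb11 peaks it was 25, beside 36.4%, and with all FLAG-Zbtb11 peaks 23, beside 36.8%.

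The fit had 2 libraries per group, the sharing of reads among near-identical copies was not analysed here, and the 6 genes under the 1 CPM filter were not tested.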
